A study of Mus musculus with 11 samples.

Results

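Glucocorticoid signalling in the epidermis was followed through 10 genes: the steroid-making genes Cyp17a1, Cyp11a1, Cyp11b1 and Star, the converting enzymes Hsd11b1 and Hsd11b2, the receptor gene Nr3c1, and the target genes Tsc22d3, Fkbp5 and Per1. They were taken by symbol from a table of 52550 genes, and all 10 were found. RNA-seq had been carried out on keratinocytes (KCs, the epithelial cells of the epidermis) and dendritic epidermal T cells (DETCs, the γ/δ T cells that live among them), sorted from flank epidermis of 8-week-old female mice. The LC-/- mice carried huLangerin-DTA, in which the human langerin promoter drives diphtheria toxin subunit A, so that Langerhans cells (LCs) are missing from birth, and the wild type (WT) controls were their littermates without the transgene. KCs were gated as live, MHC-II-, CD45-, langerin- and c-kit- cells and DETCs as live, MHC-II-, CD45+, langerin- and c-kit- cells. There were 3 WT and 3 LC-/- KC libraries, and 3 WT and 2 LC-/- DETC libraries. WT libraries are written W1 to W3 and LC-/- libraries L1 to L3 after the numbers in their titles; L1 has a KC library only, and a number that a KC and a DETC library share is not stated to be a mouse.

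Skin can make glucocorticoids from cholesterol, and it can also switch them on and off locally. In the adrenal route, STAR brings cholesterol into the mitochondrion, CYP11A1 cuts its side chain, CYP17A1 opens the branch to sex steroid precursors, and CYP11B1 finishes corticosterone, the main glucocorticoid of mice. HSD11B1 turns the inactive keto form back into corticosterone and HSD11B2 does the reverse. The hormone binds the glucocorticoid receptor, encoded by Nr3c1, which then enters the nucleus and induces genes such as Tsc22d3, Fkbp5 and Per1.

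Each library held from 13491075 to 19750440 reads assigned to genes. Values are normalized counts, that is, read counts divided by a size factor of each library, and 3 reads was taken as the limit that a count of 0 allows, for counting error only. Fold changes were fitted by limma on log2(normalized count + 1), which understates the change of low genes, and a gene was called at a Benjamini-Hochberg adjusted p under 0.05 over 14419 tested genes. The p-values measure the spread between these libraries. Cd207, which encodes langerin, had 6.15 to 26.9 normalized counts in WT KCs and 0 in every LC-/- KC library. It had 16.5 to 46.7 in WT DETCs and 0 and 4.42 in LC-/- DETCs. The sorted populations carried their own markers, since 12 DETC markers summed to 179883 to 191442 in WT DETCs, to 156047 and 159408 in LC-/- DETCs and to 6.92 to 36.8 in the KC libraries of both genotypes. Both LC-/- DETC libraries lay below all WT ones for that sum. They did so for 6 of the 12 genes, against 16.5% of all tested genes. Of the 12, limma called 1 lower, edgeR 1 and DESeq2 4, against 0.43% of all tested genes in limma. The median log2 difference of the 12 was -0.17, against 0.018 for all genes. The part of these lower marker values in the DETC values below was not tested. Keratinocyte markers were also present in the DETC libraries, at 15.3% to 25.0% of their KC level by the median of 12 genes.

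Promoter windows of 300 bases (250 before and 50 after a transcription start, RefSeq, GRCm38.p6) were at hand for 5 of the 10 genes, Cyp11a1, Hsd11b1, Tsc22d3, Fkbp5 and Per1, with 9 windows in all. The full glucocorticoid response element was searched on both strands as AGAACA and TGTTCT 3 bases apart, with up to 2 mismatches in the 12 letters, and was in none of the 9 windows. It is in 1.84% of all 32851 mouse promoter windows of this kind, and in 0.00913% without a mismatch. The half-site alone, AGAACA or TGTTCT, was in 1 window of Tsc22d3, against 19.0% of all windows. The E-box CACGTG, bound by clock factors, was in 1 window each of Fkbp5 and Per1, against 7.15% of all windows. The windows shown are the 3 of the target genes' 6 windows that hold one of these letter matches. Each is written 5′ to 3′ on the strand of its gene, with the matched letters in capitals. The windows lie at chrX:140600473-140600772 (minus strand, Tsc22d3, half-site from base 66), at chr17:28486100-28486399 (minus strand, Fkbp5, E-box from base 82) and at chr11:69098699-69098998 (plus strand, Per1, E-box from base 85), with bases counted from 1 at the 5′ end.
Tsc22d3: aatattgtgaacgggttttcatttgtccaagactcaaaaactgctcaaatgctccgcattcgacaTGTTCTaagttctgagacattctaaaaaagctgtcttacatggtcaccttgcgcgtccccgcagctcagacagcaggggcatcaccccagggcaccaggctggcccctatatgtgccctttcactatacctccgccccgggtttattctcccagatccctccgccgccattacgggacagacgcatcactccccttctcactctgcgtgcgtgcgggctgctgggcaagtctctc
Fkbp5: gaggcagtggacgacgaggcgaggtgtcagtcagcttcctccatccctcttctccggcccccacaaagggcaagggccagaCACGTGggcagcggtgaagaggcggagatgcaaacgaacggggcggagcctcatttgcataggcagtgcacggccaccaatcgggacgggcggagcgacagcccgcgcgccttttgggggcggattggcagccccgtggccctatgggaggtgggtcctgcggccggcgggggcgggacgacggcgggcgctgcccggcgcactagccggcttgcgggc
Per1: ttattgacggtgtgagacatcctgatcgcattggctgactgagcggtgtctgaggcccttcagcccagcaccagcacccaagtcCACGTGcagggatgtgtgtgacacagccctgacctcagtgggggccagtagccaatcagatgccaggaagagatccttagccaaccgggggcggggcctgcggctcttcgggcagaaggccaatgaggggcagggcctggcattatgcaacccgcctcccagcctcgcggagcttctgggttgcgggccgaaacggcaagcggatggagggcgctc
A match of letters is a description of the window, and the libraries hold no binding data.

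The steroid-making route was mostly not detected in either population. Cyp11a1, the enzyme of the side-chain cut (chr9:58006411-58027023 in GRCm38), and Cyp11b1, the last enzyme before corticosterone (chr15:74834125-74841643), had 0 reads in all 11 libraries. With 3 reads as the limit, this allows a share of at most 1.52e-05% to 2.22e-05% of the reads of a library. From the list of other steroid synthesis and conversion genes, Hsd3b1 and Nr5a1, the transcription factor of steroid-making glands, also had 0 reads in every library. Cyp21a1, which acts just before Cyp11b1, had a single library with a value, 1.10 normalized counts in an LC-/- KC library. Hsd3b6, a dehydrogenase of the same route, was at 0 to 7.17 normalized counts in KCs. It had reads in every DETC library, at 10.7 to 28.2 normalized counts in WT and 5.53 and 5.83 in LC-/-. It did not pass the filter on low values.

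Cyp17a1 had reads in all 11 libraries (chr19:46667165-46673172, minus strand). WT KCs had 73.8, 48.2 and 33.7 normalized counts in W1, W2 and W3, and LC-/- KCs had 18.7, 34.6 and 13.7 in L1, L2 and L3. The LC-/- mean was the lower of the pair, 22.3 ± 10.9 (SD, n = 3) against 51.9 ± 20.3 (SD, n = 3), but the groups overlapped, since L2 lay just above W3. The log2 fold change was -1.21 ± 0.44 (SE) and missed the threshold in limma (adjusted p = 0.163). On the recovered reads edgeR called it (adjusted p = 0.0426). DESeq2 gave it a log2 fold change of -1.20 and an unadjusted p of 0.00219, but no adjusted p. The study itself, which used DESeq2, named this gene as lower in these KC libraries, so the comparison is a description and not an independent result. In bulk libraries such as these, fewer cells that express a gene and less RNA per cell cannot be told apart.

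In DETC libraries Cyp17a1 was lower still. WT DETCs had 10.9, 13.2 and 32.1 normalized counts and LC-/- DETCs 11.7 and 3.32, the last from 3 reads. The difference between WT DETCs and WT KCs was called, at a log2 fold change of -1.50 ± 0.42 (SE; adjusted p = 0.00931, limma), with no overlap between the groups. Cyp17a1 met the filter on low values only with its KC libraries, where it is higher, so this call is a description. Without the filter it was not called (adjusted p = 0.0745, limma). The genotype difference within DETCs was -1.26 ± 0.63 (SE) with overlapping groups and an adjusted p of 0.327 in limma, and it ranged from -2.04 to -0.49 as single libraries were left out. At the keratinocyte share of each DETC library, the KC mean of the same genotype would give 7.94, 8.18 and 9.39 normalized counts in W1, W2 and W3 and 5.58 and 3.62 in L2 and L3. W3 stood above that level most, and the same library was highest among DETCs for Hsd3b6 (28.2 normalized counts against 5.53 to 10.9 in the others) and for the sebaceous gland genes Far2 (174.1 against 11.1 to 64.1) and Elovl3 (28.2 against 0 to 13.1). The 10 sebaceous gland markers summed to 3664 to 5109 in WT DETCs, 3215 to 3833 in LC-/- DETCs, 2604 to 3327 in WT KCs and 2556 to 3122 in LC-/- KCs, and none of the 10 was at 0 throughout. The higher DETC sums came from Soat1 and Fads2. Without these 2 genes the sums were 1646 to 3096 in WT DETCs, with W3 the highest, 1042 to 1961 in LC-/- DETCs, 2547 to 3276 in WT KCs and 2527 to 3060 in LC-/- KCs. The part of these genes in the Cyp17a1 values was not tested.

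Over the 11 libraries, the 5 tested genes whose log2 values followed Cyp17a1 most closely were Sdr42e1 (Pearson r = 0.948), Prdm16 (0.925), Dnal4 (0.925), Echdc1 (0.925) and Dph5 (0.924). These libraries share 2 populations and 2 genotypes, so the correlations describe these groups as much as single libraries.

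Star, the mitochondrial cholesterol carrier (chr8:25806555-25815982, plus strand), was low in all libraries and went the other way from Cyp17a1 in KCs. WT KCs had 10.2, 18.6 and 18.2 normalized counts and LC-/- KCs 34.2, 27.5 and 37.8, so that every LC-/- library lay above every WT library. The means were 15.7 ± 4.68 and 33.2 ± 5.24 (SD, n = 3 each), a log2 difference of 1.07 ± 0.27 (SE) that limma did not call (adjusted p = 0.0806). It was called by edgeR (adjusted p = 0.0355) and in 1 limma fit over all 11 libraries (adjusted p = 0.035), and over all alternatives its adjusted p ran from 0.035 to 0.193. In DETCs Star had 32.7, 38.8 and 44.7 normalized counts in WT and 43.7 and 31.0 in LC-/-, with overlapping groups and a log2 difference of -0.062 ± 0.29 (SE; adjusted p = 0.935, limma). The difference between the effects in DETCs and KCs, -1.13 ± 0.41 (SE), was not called (adjusted p = 0.317, limma interaction). WT DETCs held more Star than WT KCs, by 1.29 ± 0.29 (SE) on the log2 scale (adjusted p = 0.00277, limma).

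The enzyme that reactivates glucocorticoids was found in DETCs. Hsd11b1 (chr1:193221634-193264075, minus strand) had 907.9, 1011 and 979.3 normalized counts in WT DETCs and 827.2 and 896.7 in LC-/- DETCs. In KCs it had 0 reads in 5 of the 6 libraries and 1 read in L2, so no KC fold change is given. Against the limit of 3 reads per library, the WT DETC mean of 966.0 ± 52.8 (SD, n = 3) was at least 343.0-fold higher than WT KCs, and the gene passed the filter only through its DETC libraries. Both LC-/- DETC libraries lay below all WT DETC libraries, by 0.16 ± 0.09 (SE) on the log2 scale, which was not called (adjusted p = 0.395, limma) and is close to the median of -0.17 over the DETC markers. Its partner H6pd, which supplies the reducing cofactor that lets HSD11B1 run in the activating direction, was also higher in DETCs, at 230.2 to 268.4 normalized counts in WT DETCs against 25.1 to 35.2 in WT KCs (log2 difference 3.04, adjusted p = 2.43e-07, limma). H6pd was not called between genotypes in KCs (-0.18, adjusted p = 0.617, limma) or in DETCs (-0.16, adjusted p = 0.577, limma). The inactivating enzyme Hsd11b2 (chr8:105518755-105523988, plus strand) did not pass the filter. It had 0 reads in all WT KC libraries, 1.10, 0 and 1.05 normalized counts in LC-/- KCs, 4.36, 3.30 and 3.89 in WT DETCs and 3.88 and 5.53 in LC-/- DETCs, which is near the limit of 3 reads throughout.

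The receptor gene Nr3c1 (chr18:39410545-39519421, minus strand) did not separate the genotypes. WT KCs had 2426, 2469 and 2600 normalized counts and LC-/- KCs 2478, 1973 and 2616, a log2 difference of -0.095 ± 0.11 (SE; adjusted p = 0.645, limma). WT DETCs had 7012, 8263 and 7822 and LC-/- DETCs 6796 and 8087, a log2 difference of -0.051 ± 0.12 (SE; adjusted p = 0.858, limma). The groups overlapped in both populations. DETCs held more of it than KCs, by 1.62 ± 0.08 (SE) on the log2 scale in WT (adjusted p = 6.76e-08, limma). The related mineralocorticoid receptor gene Nr3c2, which also binds corticosterone, was lower in WT DETCs (10.7 to 17.5 normalized counts) than in WT KCs (33.8 to 43.2), with a log2 difference of -1.54 (adjusted p = 0.000636, limma).

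**Figure D1:**
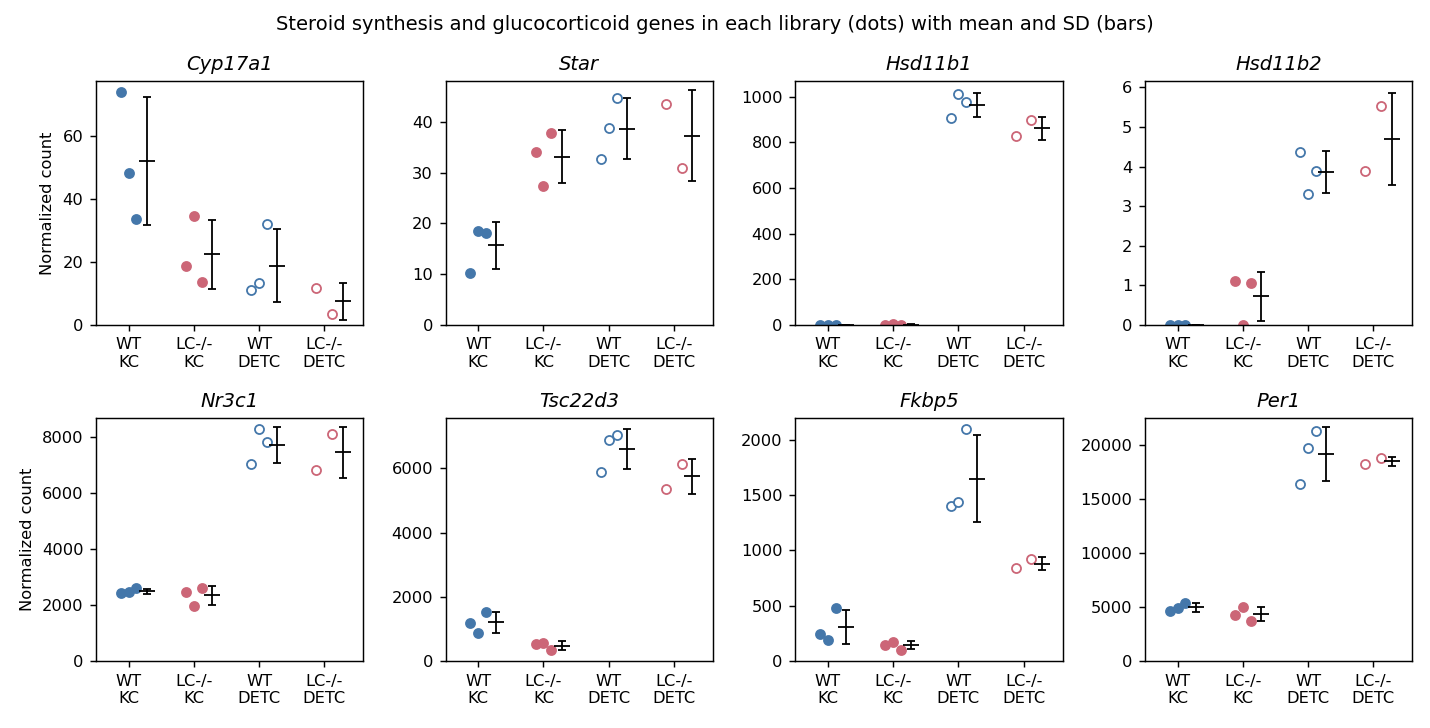
Normalized counts of 8 of the 10 genes in each library, on linear axes that start at 0, with filled dots for KCs, open dots for DETCs, blue for WT and red for LC-/-, and black bars for the mean and SD of the group. Tsc22d3 and Fkbp5 lay lower in every LC-/- KC library than in every WT KC library, Hsd11b1 was found in DETC libraries, and Nr3c1 overlapped between genotypes; Cyp11a1 and Cyp11b1 had 0 reads and are not drawn.

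Tsc22d3 encodes GILZ, a leucine zipper protein that carries part of the anti-inflammatory action of glucocorticoids (chrX:140539528-140600659, minus strand). WT KCs had 1195, 897.8 and 1545 normalized counts and LC-/- KCs 548.6, 584.3 and 341.5. All 3 LC-/- libraries were lower than the lowest WT library, with means of 491.5 ± 131.1 and 1212 ± 323.8 (SD, n = 3 each). The log2 difference was -1.30 ± 0.29 (SE), which missed the threshold in limma (adjusted p = 0.0616) and passed it in edgeR (adjusted p = 0.00108), in DESeq2 (adjusted p = 0.000678) and in 1 limma fit over all 11 libraries (adjusted p = 0.00471). Over all 14 alternatives the adjusted p ran from 0.000678 to 0.174, and with single libraries left out the difference stayed between -1.50 and -1.06. In DETCs the gene had 5881, 6877 and 7040 normalized counts in WT and 5371 and 6125 in LC-/-, with L3 above W1 and a log2 difference of -0.20 ± 0.11 (SE; adjusted p = 0.389, limma). The difference between the DETC and the KC effect was 1.11 ± 0.31 (SE), not called in limma (adjusted p = 0.157) and called in DESeq2 (adjusted p = 0.0101).

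Fkbp5, a co-chaperone that lowers the hormone affinity of the receptor and is itself induced by it, was the member called between genotypes (chr17:28399094-28517527, minus strand). It fell in LC-/- DETCs. WT DETCs had 1403, 1439 and 2097 normalized counts and LC-/- DETCs 837.9 and 925.4, with no overlap, and the means were 1646 ± 390.3 (SD, n = 3) and 881.7 ± 61.9 (SD, n = 2). The log2 fold change was -0.88 ± 0.17 (SE; adjusted p = 0.0374, limma), and edgeR and DESeq2 also called it (adjusted p = 0.0322 and 5.09e-05). It was not called without the filter (adjusted p = 0.272), without the variance trend (0.197) or in 1 limma fit over all 11 libraries (0.143). The call was lost without W1 (adjusted p = 0.056), without W2 (0.0802), without W3 (0.0656) and without L2 (0.159), and held without L3 (0.0494). In KCs Fkbp5 had 244.9, 194.8 and 484.9 normalized counts in WT and 152.0, 179.2 and 105.1 in LC-/-. These groups did not overlap either, but W3 was high and the log2 difference of -1.0 ± 0.40 (SE) was not called in limma (adjusted p = 0.192) or in DESeq2 (adjusted p = 0.0878), while edgeR called it (adjusted p = 0.0242). Without W3 the KC difference was -0.62. The interaction between the populations was 0.12 ± 0.44 (SE; adjusted p = 0.954, limma).

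Per1, a repressor of the circadian clock that glucocorticoids induce directly, had the highest level per kb of exon among the members in both WT populations (chr11:69095217-69109960, plus strand). WT KCs had 4628, 4925 and 5429 normalized counts and LC-/- KCs 4325, 5052 and 3751, with overlap and a log2 difference of -0.20 ± 0.13 (SE; adjusted p = 0.376, limma). WT DETCs had 16403, 19713 and 21249 and LC-/- DETCs 18197 and 18769, both inside the WT range, with a log2 difference of -0.041 ± 0.13 (SE; adjusted p = 0.906, limma). 

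Of the 7 members that passed the filter, Hsd11b1 did so only through DETCs and is left out of the counts that involve KCs. Cyp17a1 did so only with its KC libraries and is kept in the counts. Of the other 6, limma called 0 in KCs, where 5.37% of all tested genes were called higher and 1.85% lower. Those shares rest on 775 higher and 267 lower genes. The counts became 10 and 5 without W1, 5 and 0 without L1 and 7 and 9 without W2. They were 200 and 24 without W3, 552 and 169 without L2 and 10 and 6 without L3. Before adjustment, Star (1 higher) and Cyp17a1 and Tsc22d3 (2 lower) had a p under 0.05. On reads, edgeR called 1 higher (Star) and 3 lower (Cyp17a1, Tsc22d3 and Fkbp5), and DESeq2 called 1 lower (Tsc22d3) and gave Cyp17a1 and Star no adjusted p. In DETCs limma called 1 of the 7 lower, against 0.43% of all genes called lower and 3.13% called higher. That split over all DETC genes, 452 higher and 62 lower, was 178 and 85 under quantile normalization. It was 342 and 28 without W1, 63 and 10 without W2 and 42 and 0 without W3. Every LC-/- library was lower than every WT library for 2 of the 6 in KCs (Tsc22d3 and Fkbp5), where 14.9% of all tested genes did so, and for 2 of the 7 in DETCs (Fkbp5 and Hsd11b1), where 16.5% did so. Every LC-/- library was higher for 1 in KCs (Star), against 16.6% of all genes, and for 0 in DETCs, against 21.3%. None of the 6 passed the limma interaction test, in which 0.617% of all genes were called with a more positive effect in DETCs and 0.18% with a more negative one (89 and 26 genes, or 70 and 48 under quantile normalization), while Tsc22d3 and Star, 1 in each direction, had an unadjusted p under 0.05, edgeR called 0 and DESeq2 called 1 (Tsc22d3).

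**Figure D2:**
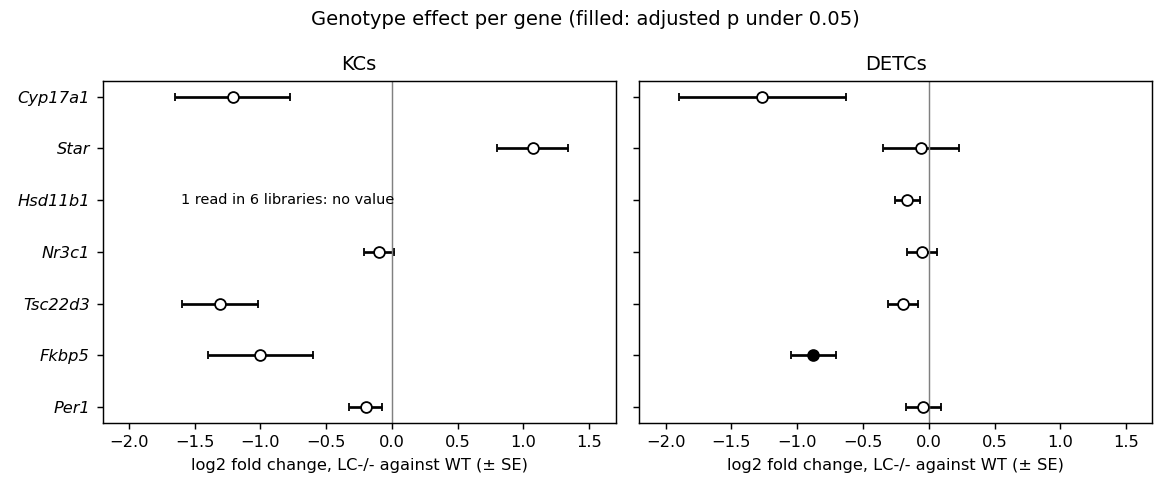
Log2 fold change with SE of the 7 tested members, LC-/- against WT, in KCs (left) and DETCs (right), from limma on log2(normalized count + 1). Filled points passed an adjusted p under 0.05, which Fkbp5 in DETCs did at -0.88; Hsd11b1 has no KC value because it had 1 read in 6 libraries.

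The members also differed between the populations. Apart from Hsd11b1, 6 members were tested between WT DETCs and WT KCs, and all 6 were called, 5 higher in DETCs and Cyp17a1 lower, in a comparison in which 41.0% of all tested genes were higher and 35.1% lower. Cyp17a1 met the filter only with its KC libraries, so its call is a description, and it was lost without the filter (adjusted p = 0.0745, limma). Quantile normalization turned that split from 5906 higher and 5059 lower genes to 4693 and 6658 and moved the median of all genes from 0.073 to -0.24, and the 6 members kept their direction and their calls under it. The log2 differences of the targets were 2.47 ± 0.17 for Tsc22d3, 2.50 ± 0.30 for Fkbp5 and 1.93 ± 0.11 for Per1 (SE; adjusted p = 7.3e-07, 3.8e-05 and 2.27e-07, limma). Per kb of exon, the order of levels in WT KCs was Per1 (886.9 normalized counts per kb), Nr3c1 (325.1), Tsc22d3 (279.3), Fkbp5 (32.6), Cyp17a1 (18.7) and Star (3.81), with the ranges of Nr3c1 and Tsc22d3 and those of Fkbp5 and Cyp17a1 overlapping. In WT DETCs it was Per1 (3396), Tsc22d3 (1520), Nr3c1 (1002), Hsd11b1 (227.2), Fkbp5 (173.9), Star (9.42), Cyp17a1 (6.77) and Hsd11b2 (2.09), with overlap between Hsd11b1 and Fkbp5 and between Star and Cyp17a1.

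**Figure D3:**
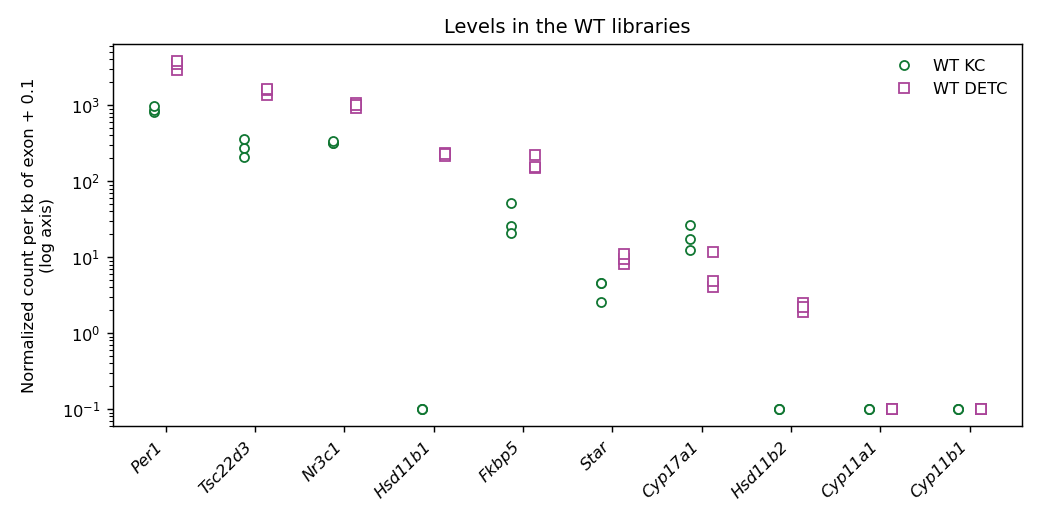
Normalized counts per kb of exon, plus 0.1, of the 10 genes in each WT library on a log axis, with circles for KCs and squares for DETCs. Points at 0.1 stand for 0 reads, where Hsd11b1 and Hsd11b2 lie in KCs, and Cyp11a1 and Cyp11b1 lie in both populations.

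Around these members, few other steroid synthesis and conversion genes were called. Of 39 listed genes 37 were in the table and 19 were tested, of which 0 were called in KCs by limma (an unadjusted p under 0.05 was met by 1 that was higher and 3 that were lower, and edgeR and DESeq2 each called 1 lower), and their median log2 difference was -0.18 against -0.015 for all genes. Limma called 5.37% of all tested genes higher and 1.85% lower in KCs, and 3.13% and 0.43% in DETCs. In DETCs 1 of the 19 was called higher and 0 lower, with a median of -0.082 against 0.018. An unadjusted p under 0.05 was met by 2 that were higher and 4 that were lower, while edgeR called 1 in each direction and DESeq2 1 higher and 2 lower. Every LC-/- KC library was lower than every WT KC library for 6 of the 19 and higher for 1, against 14.9% and 16.6% of all genes. In DETCs these counts were 7 and 4, against 16.5% and 21.3%. The most negative value was that of Akr1c18, a hydroxysteroid dehydrogenase named after its values were seen, at 69.3 to 231.4 normalized counts in WT DETCs and 15.5 and 38.7 in LC-/- DETCs (log2 difference -2.19, adjusted p = 0.0703, limma). The called gene was Sult2b1, which sulfonates cholesterol and other hydroxysteroids. WT DETCs had 538.0, 584.3 and 604.9 normalized counts of it and LC-/- DETCs 1286 and 1327, a log2 fold change of 1.18 ± 0.09 (SE; adjusted p = 0.00556, limma). In KCs its groups overlapped, at 243.8 to 307.9 in WT and 244.6 to 326.8 in LC-/- (log2 difference 0.048, adjusted p = 0.875, limma).

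Among 19 partners of the receptor, all of them tested, 1 was called higher in KCs, where 5.37% of all tested genes were. In DETCs 2 were called higher, against 3.13% of all genes, and 0 were called lower in either population. Their median log2 differences were 0.075 in KCs and 0.27 in DETCs, against -0.015 and 0.018 for all genes. Nrip1, a corepressor of nuclear receptors, rose in LC-/- KCs from 3385 to 3496 normalized counts in WT to 4650 to 5985 (log2 fold change 0.59, adjusted p = 0.037, limma). In DETCs the heat shock protein Hsp90aa1, which holds the receptor ready for hormone, rose from 12364 to 15110 in WT to 20547 to 21003 (0.62, adjusted p = 0.034, limma). The co-chaperone gene Dnajb1 rose in DETCs from 7548 to 9120 in WT to 11512 to 12157 (0.51, adjusted p = 0.0475, limma). Fkbp4, the co-chaperone that Fkbp5 competes with, was lower in every LC-/- library of both populations but was not called (-0.24, adjusted p = 0.138 in KCs and -0.26, adjusted p = 0.238 in DETCs, limma). Nr3c2 was not called in KCs (-0.19, adjusted p = 0.485, limma) or DETCs (0.31, adjusted p = 0.729, limma).

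Of 25 other genes that glucocorticoids induce in many tissues, 24 were tested, and limma called 1 higher and 1 lower in each population. Over the whole tested set, the limma shares for KCs were 5.37% upward and 1.85% downward. For DETCs these shares were 3.13% and 0.43%. The median log2 differences of the list were -0.098 in KCs and 0.079 in DETCs, against -0.015 and 0.018 for all genes. Glul, glutamine synthetase, fell in LC-/- KCs, from 1935, 1254 and 2152 normalized counts in WT to 721.6, 737.0 and 604.2 (log2 fold change -1.34 ± 0.22, SE, adjusted p = 0.0361, limma). Errfi1, a feedback inhibitor of the EGF receptor, rose in both populations (0.53, adjusted p = 0.0385 in KCs and 0.51, adjusted p = 0.0489 in DETCs, limma), and Il7r, the receptor chain for interleukin-7, fell in LC-/- DETCs (-0.70, adjusted p = 0.023, limma). The study had named Il7r as lower in these DETC libraries, so its value here is a description and not an independent result. Every LC-/- KC library was lower than every WT KC library for 7 of the 24 and higher for 3, against 14.9% and 16.6% of all genes. In DETCs the counts were 1 and 6, against 16.5% and 21.3%. With single libraries left out, the limma count in KCs was 0 to 1. On reads, the KC calls were 3 higher and 5 lower in edgeR and 4 higher and 5 lower in DESeq2.

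The KC genes with the most negative values in that list were not all called. Zbtb16, the transcription factor PLZF, had 3218, 1875 and 3403 normalized counts in WT KCs and 1344, 1802 and 1077 in LC-/- KCs, without overlap (log2 difference -0.99 ± 0.30, SE, adjusted p = 0.116, limma). Txnip, Angptl4, Ddit4 and Klf15, singled out after their values were seen, had log2 differences of -0.88, -0.55, -0.54 and -0.60 in KCs, with adjusted p of 0.0823, 0.113, 0.0761 and 0.165 in limma. Klf9 had -0.19 in KCs (adjusted p = 0.0724, limma) and -0.037 in DETCs (adjusted p = 0.915). Sgk1 and Dusp1, both strongly expressed, had -0.13 and -0.10 in KCs (adjusted p = 0.396 and 0.704, limma) and -0.18 and 0.17 in DETCs (adjusted p = 0.41 and 0.516).

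**Figure D4:**
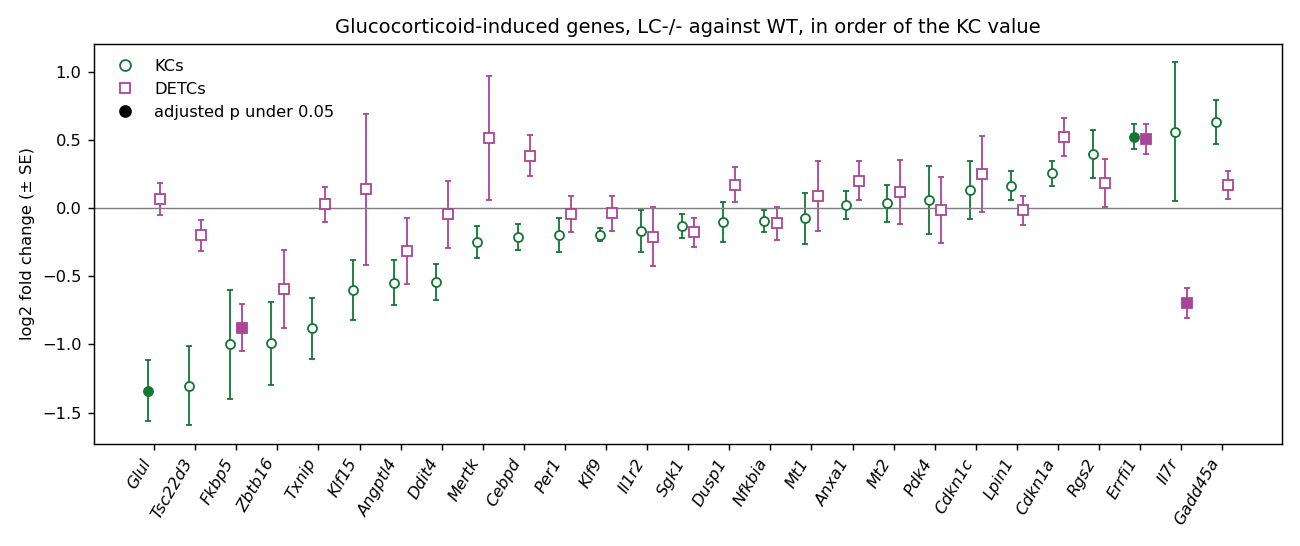
Log2 fold change with SE, LC-/- against WT, of Tsc22d3, Fkbp5, Per1 and 24 other glucocorticoid-induced genes, ordered by the KC value, with circles for KCs and squares for DETCs. Filled symbols passed an adjusted p under 0.05 in limma, namely Glul (-1.34) and Errfi1 (0.53) in KCs and Fkbp5 (-0.88), Il7r (-0.70) and Errfi1 (0.51) in DETCs.

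Genes that glucocorticoids repress were called in both directions. Of 18 listed, 16 were tested, with 1 called in KCs (lower) and 1 in DETCs (higher). Over all genes, 1.85% were called lower in KCs and 3.13% higher in DETCs. The medians of the list were 0.053 and 0.35, against -0.015 and 0.018 for all genes. On reads, the balance in KCs was the other way, with 5 higher and 2 lower in edgeR and 4 higher and 2 lower in DESeq2, while in DETCs each tool called 1 higher. DESeq2 gave no adjusted p to 4 of the 16 in KCs and to 9 of the 16 in DETCs. Tnf, the inflammatory cytokine, fell in LC-/- KCs, from 179.3 to 236.8 normalized counts in WT to 104.8 to 127.1 (log2 fold change -0.77, adjusted p = 0.0426, limma). Ptgs2, the inducible cyclooxygenase, rose in LC-/- DETCs, from 872.3 to 1154 in WT to 1879 to 2738 (1.13, adjusted p = 0.0226, limma).

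Per1 is also a clock gene, so 17 other clock genes were set beside it, all tested. In KCs limma called 2 higher and 0 lower, against 5.37% and 1.85% of all tested genes, and edgeR and DESeq2 each called 3 higher and 1 lower. The median was 0.083, against -0.015 for all genes. Cry1 rose from 847.8 to 969.0 normalized counts in WT to 1310 to 1383 (log2 fold change 0.55, adjusted p = 0.0194, limma), and Csnk1d, a kinase that marks PER proteins, rose by 0.40 (adjusted p = 0.0238, limma). In DETCs limma called 2 higher and 0 lower, against 3.13% and 0.43% of all tested genes, while edgeR called 2 higher and DESeq2 3 higher. The median was 0.25, against 0.018 for all genes. Cry2 rose from 363.4 to 498.4 in WT to 739.7 to 803.9 (0.82, adjusted p = 0.0299, limma), and Nr1d2, a nuclear receptor of the clock, rose by 0.51 (adjusted p = 0.0291, limma). Per2, the paralog of Per1 and likewise hormone-responsive, was not called in KCs (0.36, adjusted p = 0.569, limma) or DETCs (0.017, adjusted p = 0.975, limma).

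Immediate early genes, which respond to cell handling as well as to signals, were also counted. The 13 of them summed to 335881 to 390598 normalized counts in WT DETCs and to 412687 and 468710 in LC-/- DETCs. Both LC-/- DETC libraries were higher than all WT ones for 11 of the 13, against 21.3% of all genes. The same held for 10 of the 19 receptor partners, 9 of the 17 clock genes and 8 of the 16 tested repressed genes. It held for 6 of the 24 tested induced genes and 4 of the 19 tested steroid synthesis and conversion genes. Both were lower than all WT ones for 7 of those 19 steroid genes, against 16.5% of all genes. That was so for 0 of the 13 immediate early genes, 3 of the 19 partners and 1 of the 17 clock genes. It was so for 0 of the 16 repressed and 1 of the 24 induced genes. Of the 13, limma called 2 higher, edgeR 2 and DESeq2 6, against 3.13% of all genes in limma. The limma calls were Egr3 (0.58, adjusted p = 0.0155, limma) and Ier3 (0.46, adjusted p = 0.0334, limma). In KCs the sums were 441384 to 458883 in WT and 404804 to 477770 in LC-/-, and 0 of the 13 were called in limma, although 3 of the higher and 1 of the lower genes had an unadjusted p under 0.05, and edgeR and DESeq2 each called 1 in each direction. The keratinocyte markers summed to 84061 to 102440 in WT DETCs and 85111 and 136198 in LC-/- DETCs, with all 12 detected in every group. The part of the immediate early genes or of the keratinocyte markers in the DETC values above was not tested.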

How the data were processed

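Poly-A RNA from sorted KCs and DETCs had been sequenced in 11 libraries. After trimming (cutadapt) and alignment to GRCm38 (hisat2), the authors obtained gene counts from featureCounts and scaled each library by its median-of-ratios size factor (DESeq2). The deposited values are the resulting signal, which stays on a count scale. All values (100.0%) were whole multiples of 1 step per library to within 0.01 reads, so reads were recovered, between 13491075 and 19750440 per library. Symbols and exon lengths came from GENCODE mouse release M21, which matched 52403 of 52550 identifiers. The other 147 were tested by identifier.

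Genes with a CPM above 1 in at least 2 libraries (14419) were analysed as log2(value + 1) in R 4.3.3 with limma 3.58.1, using a mean-variance trend in eBayes and Benjamini-Hochberg adjustment. Genotypes were compared within each population, their difference by an interaction term, and WT populations with each other. edgeR 4.0.16 (quasi-likelihood) and DESeq2 1.42.0 were run on the reads as alternatives, beside other pseudocounts, no filter, quantile normalization, no trend, 1 fit over all libraries, a replicate block and omission of each library. The fits were tested on simulated counts. The members and gene lists were chosen with earlier results of these data known. Named list genes were the 3 largest called changes per list, population and direction, plus Cyp21a1, Hsd3b1, Hsd3b6, H6pd, Nr3c2, Fkbp4, Sgk1, Dusp1, Klf9, Zbtb16, Per2 and Nr5a1. The 5 genes most correlated with Cyp17a1 were also named. Txnip, Angptl4, Ddit4, Klf15 and Akr1c18, and the cell type markers whose values are given, were named outside this rule after their values were seen. The fold changes and p-values that the authors computed were not used.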

Additional observations from a re-analysis of the deposited data

Results flagged for a closer look

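By the limma interaction test, the genotype effect was called different between DETCs and KCs for 3 named genes, none of them a member of the set of 10. Over all tested genes, 0.617% were called with a more positive effect in DETCs and 0.18% with a more negative one. The 3 had been named because they were called within KCs or within DETCs of these same libraries, so their interactions are a description. None of the 3 kept its call with the title number as a replicate block (adjusted p = 0.0663 for Sult2b1, 0.0663 for Glul and 0.0702 for Tnf, limma). Sult2b1 rose in LC-/- DETCs and had overlapping groups in KCs, and its interaction was 1.14 on the log2 scale (adjusted p = 0.014, limma), called in 16 of 19 alternatives. Glul fell in LC-/- KCs and had 2438 to 3074 normalized counts in WT DETCs and 2803 and 3074 in LC-/- DETCs. Its interaction was 1.41 (adjusted p = 0.0256, limma), called in 8 of 19 alternatives. Tnf fell in LC-/- KCs and had 2579 to 2875 normalized counts in WT DETCs and 2638 and 3264 in LC-/- DETCs. Its interaction was 0.88 (adjusted p = 0.0492, limma), called in 3 of 19 alternatives.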

How the results depend on the processing

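Of 815 fold changes of single genes under an alternative setting, 673 kept the direction and side of the threshold, 104 lost a call, 11 gained a call and 27 changed sign. In KCs the 0 members called became 4 in edgeR, 1 in DESeq2 and 2 in 1 fit over all 11 libraries. Leaving out single libraries gave 0 throughout. In DETCs the 1 member called became 0 without the filter, without the trend and in 1 fit over all 11 libraries, and 0 to 1 with single libraries left out. Where an LC-/- DETC library was left out, the lone library was assumed to vary like the WT group. The interaction called 0 members in limma and 1 in DESeq2. All 6 calls between WT populations held with any single library left out, and Cyp17a1 lost its call without the filter (adjusted p = 0.0745). Of the other glucocorticoid-induced genes, the 2 called in KCs became 0 without the filter, 8 in edgeR, 9 in DESeq2, 4 in 1 fit over all 11 libraries, and 0 to 1 with single libraries left out. The 2 called in DETCs became 1 with a pseudocount of 8 or quantile normalization, 0 without the filter or the trend, and 0 to 3 with single libraries left out. Omission of W1, L1, W2, W3, L2 or L3 in KCs changed that KC count from 2 to 0, 0, 0, 0, 1 and 0. Calls over all genes in KCs were 775 higher and 267 lower in limma, 1192 and 591 in edgeR, 1215 and 537 in DESeq2, 252 and 88 without the filter, 419 and 214 with quantile normalization, and from 5 and 0 (without L1) to 552 and 169 (without L2) with single libraries left out. In DETCs they were 452 and 62 in limma, 410 and 73 in edgeR, 868 and 211 in DESeq2, 137 and 48 without the filter, 178 and 85 with quantile normalization, from 29 and 6 (without L2) to 478 and 112 (without L3) with single libraries left out, and 0 and 0 without the trend, where 1554 and 853 genes had an unadjusted p under 0.05. The cause of these shifts was not tested.

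The sign changes were all in values that were not called. For the interaction, Cyp17a1 went to 0.23 with a pseudocount of 8, and Nr3c1 and Fkbp5 to -0.053 and -0.037 with quantile normalization. In DETCs, Dusp1 went to -0.071 with quantile normalization, and Per2 to -0.047 in edgeR and -0.032 in DESeq2. With single libraries left out, the ranges were -0.18 to 0.028 for Nr3c1 in KCs, -0.30 to 0.18 for Star, -0.18 to 0.074 for Nr3c1 and -0.15 to 0.039 for Per1 in DETCs, and -0.83 to 0.72 for Cyp17a1, -0.082 to 0.17 for Nr3c1 and -0.26 to 0.40 for Fkbp5 in the interaction. Dusp1 in KCs ran from -0.21 to 0.038, and Klf9 and Per2 in DETCs from -0.18 to 0.11 and -0.11 to 0.18.

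With the title number as a replicate block, the interaction called 0 members and the comparison of WT populations 6, as without it. Over all genes the interaction calls went from 89 higher and 26 lower to 17 and 1 with the block, and those of Sult2b1, Glul and Tnf were lost (adjusted p = 0.0663, 0.0663 and 0.0702, limma). Libraries with the same number correlated, in their deviations from the group means, at -0.053 (W1), 0.067 (W2), 0.117 (W3), 0.143 (L2) and 0.117 (L3). In groups this small, such correlations cannot tell whether libraries that share a number share a mouse. The samples were not treated as paired because the numbers are not stated to be mice. At the low counts of Cyp17a1, Star and Hsd11b2, differences of a few reads could not be detected.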
